A study of Mus musculus with 14 samples.

Results

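Chromatin immunoprecipitation with sequencing (ChIP-seq) for Suz12 was compared between mouse cells that expressed wild-type histone H3.3 (H3WT) and cells that expressed H3.3 with methionine in place of lysine 27 (K27M). The cells are labelled PDGF neural stem cells, and the design text of the series calls them mouse DIPG cells, after the childhood brainstem tumour diffuse intrinsic pontine glioma. Both Suz12 libraries came from cells given the solvent DMSO for 12 days, with 1 library per genotype. All peaks of these 2 libraries were used: 631 in H3WT and 1252 in K27M, 1883 of the 100123 peaks in the 12 lists of the series. The lists set beside them were 2 H3K27me3 replicates per genotype in DMSO, 2 per genotype after 12 days with 3 µM EPZ6438 (EPZ), an inhibitor of the methyltransferase Ezh2, and 1 Ring1b library per genotype in DMSO. The labels do not say whether either genotype is 1 clone or how many cultures were used, and a peak list cannot show which H3.3 a cell expresses.

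Suz12 is a core subunit of Polycomb repressive complex 2 (PRC2), the enzyme complex that methylates lysine 27 of histone H3 through its catalytic subunit Ezh2. PRC2 is found at CpG-rich start regions of silent developmental genes, from where H3K27me3 extends into broader domains. Ring1b is the ubiquitin ligase of the partner complex PRC1. H3 K27M is a recurrent mutation of childhood midline glioma, known for a wide loss of H3K27me3 outside such domains. With 1 Suz12 library per genotype there is no replicate spread, so no difference below carries a test. The exact 95% intervals (Clopper-Pearson) given with shares cover only the counting of peaks or genes. Read depth, peak caller and threshold are not given in the sources used here, so a difference in library quality and a difference between genotypes cannot be told apart.

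The start regions of a few genes are printed because Suz12 was found at them in 1 genotype, with each CpG in capitals. They are the 250 bases before a start site, from RefSeq on GRCm38.p6, whose chromosomes are those of mm10. For Hoxa5, Dlx2 and Onecut1 all 250 bases lay under a K27M peak and none under an H3WT peak. Cdkn2a has a pair of start regions: the inner, CpG-poor one lay under a K27M peak, and the outer, CpG-dense one under no Suz12 peak. The whole Msx2 stretch lay under an H3WT peak and none of it under a K27M peak.
Hoxa5, chr6:52204588-52204837, minus strand: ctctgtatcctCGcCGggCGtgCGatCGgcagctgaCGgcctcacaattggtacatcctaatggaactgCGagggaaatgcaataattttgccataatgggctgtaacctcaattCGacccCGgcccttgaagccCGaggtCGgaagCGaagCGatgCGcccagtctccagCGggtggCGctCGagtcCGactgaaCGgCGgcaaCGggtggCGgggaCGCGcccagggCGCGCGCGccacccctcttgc
Dlx2, chr2:71546755-71547004, minus strand: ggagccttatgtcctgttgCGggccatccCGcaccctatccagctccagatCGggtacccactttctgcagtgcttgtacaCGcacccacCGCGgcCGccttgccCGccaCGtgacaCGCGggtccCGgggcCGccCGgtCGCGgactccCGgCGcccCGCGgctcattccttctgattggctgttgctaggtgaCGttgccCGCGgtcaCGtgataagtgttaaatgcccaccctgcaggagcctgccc
Onecut1, chr9:74861671-74861920, plus strand: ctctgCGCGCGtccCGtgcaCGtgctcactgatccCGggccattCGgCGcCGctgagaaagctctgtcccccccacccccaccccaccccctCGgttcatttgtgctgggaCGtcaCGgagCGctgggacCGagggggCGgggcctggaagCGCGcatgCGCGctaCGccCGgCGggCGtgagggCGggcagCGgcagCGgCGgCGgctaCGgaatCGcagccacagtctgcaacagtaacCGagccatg
Cdkn2a inner start, chr4:89282193-89282442, minus strand: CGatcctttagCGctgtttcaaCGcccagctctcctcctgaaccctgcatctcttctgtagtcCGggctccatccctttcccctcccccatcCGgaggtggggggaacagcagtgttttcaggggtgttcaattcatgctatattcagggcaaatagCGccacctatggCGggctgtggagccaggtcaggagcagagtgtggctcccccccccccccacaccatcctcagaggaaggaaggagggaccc
Cdkn2a outer start, chr4:89294620-89294869, minus strand: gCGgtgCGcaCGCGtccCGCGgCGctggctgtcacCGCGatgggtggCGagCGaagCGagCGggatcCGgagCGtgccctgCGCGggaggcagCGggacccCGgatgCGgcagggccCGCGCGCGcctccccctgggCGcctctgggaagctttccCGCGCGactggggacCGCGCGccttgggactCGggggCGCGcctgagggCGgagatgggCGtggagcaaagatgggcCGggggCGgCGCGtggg
Msx2, chr13:53472781-53473030, minus strand: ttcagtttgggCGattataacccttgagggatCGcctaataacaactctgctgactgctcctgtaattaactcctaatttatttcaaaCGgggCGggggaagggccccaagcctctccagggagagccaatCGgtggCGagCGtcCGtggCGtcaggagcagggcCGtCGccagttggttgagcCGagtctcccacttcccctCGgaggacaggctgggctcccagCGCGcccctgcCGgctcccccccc
The printed stretches hold 28 CpGs for Hoxa5, 24 for Dlx2, 31 for Onecut1, 7 and 40 for the inner and outer Cdkn2a starts, and 16 for Msx2. Over the 21044 start windows of 300 bases that the RefSeq table gives for 17273 of 21627 protein-coding genes, 48.1% had a ratio of observed to expected CpG of at least 0.6. The share was 77.5% of 169 windows with Suz12 in both genotypes, 72.6% of 179 with Suz12 in K27M alone and 71.3% of 87 with Suz12 in H3WT alone. It was 47.9% of 1034 windows that lacked Suz12 but lay under H3K27me3 in both H3WT replicates. All 3 Suz12 classes were thus richer in CpG than windows with H3K27me3 but no Suz12, and differed little among themselves.

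K27M cells had 1252 Suz12 peaks against 631 in H3WT cells, a ratio of 1.98, and the covered length was 3.96 against 2.05 Mb, a ratio of 1.94. The median peak was not wider in K27M: 2.002 kb against 2.395 kb. The narrowest peak was 1001 bp in both lists. A cover near 1 kb, as at several genes named below, is thus close to the smallest called. The widest peak was 69.8 kb in K27M and 16.6 kb in H3WT, and 48 and 23 peaks exceeded 10 kb. Chromosome X carried 9 peaks in K27M and 0 in H3WT. Among the 19 autosomes the ratio of peak numbers ran from 1.07 on chromosome 1 to 5.21 on chromosome 10, with a median of 2 and the next highest, 2.74, on chromosome 3. On chromosome 10 the excess lay from 75 Mb on, a limit chosen after the values were seen: 50 Suz12 peaks in K27M against 4, and 109 Ring1b peaks against 26. Before 75 Mb the numbers were 23 against 10 for Suz12 and 34 against 44 for Ring1b, and on all other chromosomes 1179 against 617 and 1665 against 1684. Alx1, Gli1, Wif1, Arid3a and Kiss1r, named below, lie in this stretch, and what set it apart was not tested.

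The peaks of both lists were joined wherever they overlapped by at least 1 bp, which gave 1327 sites. Of these, 401 were shared, 764 were found in K27M only and 162 in H3WT only. From the H3WT side, 469 of 631 peaks (74.3%, interval 70.7 to 77.7) were overlapped by a K27M peak, and from the K27M side 488 of 1252 (39.0%, 36.3 to 41.7) were overlapped by an H3WT peak. In bases, the 1.44 Mb under both lists was 70.6% of the H3WT and 36.4% of the K27M cover. Most H3WT peaks thus recurred in K27M, and most K27M peaks had no H3WT partner. That asymmetry went with list length. When only the 631 widest K27M peaks were kept, 59.9% of H3WT peaks and 54.0% of K27M peaks were overlapped, and the ratio of K27M only to H3WT only sites was 1.15 in place of 4.72.

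Peaks without a partner were narrow in both genotypes. The median width was 1.75 kb for K27M peaks with no H3WT partner against 2.91 kb with one, and 1.82 against 2.72 kb for H3WT peaks. Of the K27M only sites, 159 of 764 (20.8%) lay within 10 kb of an H3WT Suz12 peak and 566 (74.1%) lay 50 kb or more away. H3WT only sites were spaced alike, with 39 of 162 (24.1%) within 10 kb of a K27M peak and 114 (70.4%) at 50 kb or more. Most K27M only sites were therefore separate places rather than outgrowths of H3WT peaks. Shared sites lay within 1 kb of a gene end in 285 of 401 cases (71.1%), K27M only sites in 319 of 764 (41.8%) and H3WT only sites in 90 of 162 (55.6%). K27M only sites were inside a gene, away from its ends, in 30.6% of cases, against 12.2% of shared sites. Shared sites were also the wider, with a median K27M cover of 3.81 against 1.75 kb, and a wider site reaches a gene end more easily. The part of width in these shares was not tested.

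At the 401 shared sites the K27M cover was the larger at 256 and the smaller at 145. The median log2 ratio of K27M to H3WT cover was 0.21 (1.16-fold), with quartiles of -0.21 and 0.85, and the summed cover was 2.20 against 1.72 Mb. At 75 sites K27M was at least 2-fold wider and at 36 at least 2-fold narrower. In the third of sites with the most cover, 98 of 134 were wider in K27M, against 72 of 134 in the third with the least. Among 298 sites with 1 peak in each genotype, the K27M peak spanned the H3WT peak at 133, lay inside it at 67 and was shifted to 1 side at 98. Widening was thus the more common change, without being general.

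**Figure D1:**
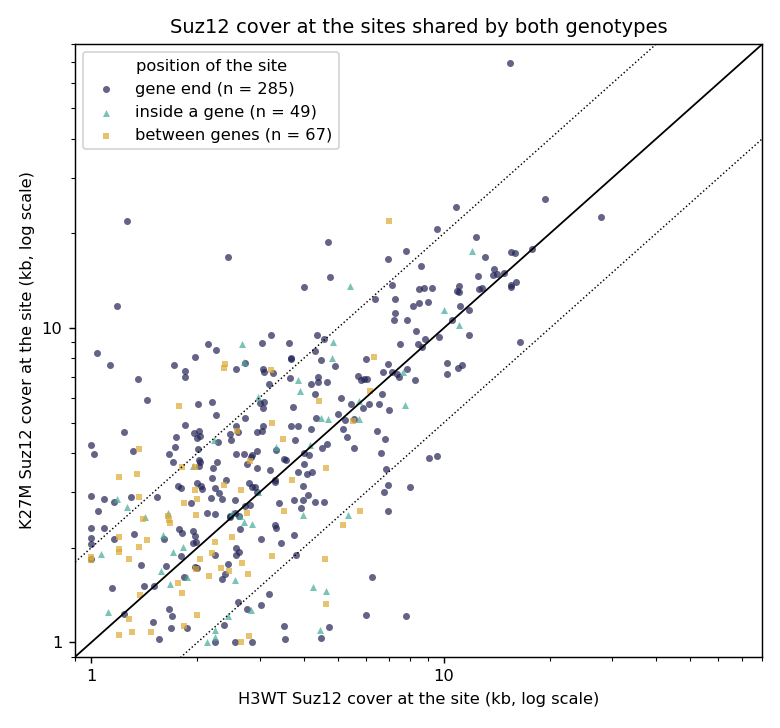
Suz12 cover at each of the 401 shared sites in H3WT (x axis, kb, log scale) and K27M (y axis, kb, log scale), 1 point per site, marked by its position relative to genes. The solid line is equal cover and the dotted lines are 2-fold differences. The point at the top is the Hoxa site, at 15.4 kb in H3WT and 69.8 kb in K27M.

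The plot of cover at shared sites shows a few start regions far above the line of equal cover. At Lmx1b, a LIM homeobox gene of dorsal midline and hindbrain neurons, a 1.26 kb H3WT peak met a K27M peak of 21.9 kb (chr2:33625814-33647741). At Tal1, a bHLH factor of blood and some brainstem and spinal neurons, the widths were 1.18 and 11.7 kb. At Gata2, a zinc-finger factor of blood and ventral interneurons, 2 H3WT peaks with 2.45 kb in sum lay under 1 K27M peak of 16.8 kb (chr6:88190509-88207293). In all 3 places the whole K27M peak was under H3K27me3 in both replicates of both genotypes, so the bases newly under a Suz12 peak were not bases newly under H3K27me3. Ring1b cover of the same stretches was the larger in K27M: 21.9 against 15.3 kb at Lmx1b, 11.7 against 7.59 kb at Tal1 and 16.8 against 10.1 kb at Gata2. The whole Ring1b list also covered more in K27M, 7.54 against 5.17 Mb, so a larger Ring1b cover was not particular to these places. Other large gains were at the heart homeobox gene Nkx2-5, with 24.3 against 10.8 kb, and at Lbx1, a homeobox gene of dorsal interneurons and migrating muscle precursors, with 20.6 against 9.57 kb. Alx1, a paired-type gene of craniofacial mesenchyme, had 18.8 against 4.68 kb, but it lies on chromosome 10 beyond 75 Mb. A site of 21.8 against 6.99 kb lay between genes, 20.9 kb from the nearest gene end, that of Hsd17b12.

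The largest losses were smaller than the largest gains. Sox17, a factor of endoderm and endothelium, had 7.81 kb in H3WT against 1.22 kb in K27M, the strongest narrowing by ratio (log2 -2.68). Fezf1, a zinc-finger gene of the forebrain, had 9.57 and 3.92 kb, and Nkx6-1, a homeobox gene of ventral neural progenitors, had 9.05 and 3.87 kb. Inside these sites H3K27me3 and Ring1b were still called in K27M. Both K27M H3K27me3 replicates and the K27M Ring1b list covered all 7.81 kb of the Sox17 site, all 9.57 kb at Fezf1 and all 9.05 kb at Nkx6-1. Over 10 kb to each side of the gene ends, H3K27me3 was narrower in K27M at Sox17 (11.7 and 17.7 kb against 20.2 and 23.5 kb, replicates 1 and 2) and at Nkx6-1 (13.8 and 15.1 kb against 17.2 and 19.7 kb). At Fezf1 it was not (22.2 and 25.04 kb against 21.6 and 23.96 kb).

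The 10 widest sites found in K27M alone ran from 8.76 to 21.5 kb. The Dlx1 and Dlx2 block, over a pair of homeobox genes of inhibitory forebrain neurons, was 18.7 kb wide in K27M (chr2:71525710-71544396), and the nearest H3WT Suz12 peak was 3104 kb away. Neurog2, a proneural bHLH gene, had a block of 14.0 kb, Otx2, a homeobox gene of forebrain and midbrain, 11.9 kb, and Isl2, a LIM homeobox gene of motor neurons, 9.61 kb. Onecut1, a homeobox gene of liver, pancreas and neurons whose CpG-dense start is printed above, had 14.5 kb, and an H3WT peak lay 1.23 kb away. H3WT cells already carried H3K27me3 there: replicate 1 covered 18.7, 13.4, 11.9, 9.61 and 14.5 kb of the Dlx1 and Dlx2, Neurog2, Otx2, Isl2 and Onecut1 blocks. The others were at Prrt4 (12.4 kb), inside Zfhx3 (9.44 kb) and 22.7 kb from Atf3, the nearest gene (8.76 kb). The widest K27M only site, 21.5 kb at Arid3a and Kiss1r, and that of 9.31 kb at Wif1 were both on chromosome 10 beyond 75 Mb.

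Sites in H3WT alone were about as wide at the median as those in K27M alone (1.82 against 1.75 kb), and the widest of them was 5.65 against 21.5 kb. That widest site was at the end of Msx2 away from the printed start, and Msx2, a homeobox gene of the dorsal midline and neural crest, had 10.3 kb in H3WT and 0 in K27M within 10 kb of its ends. Its relative Msx1 had one of 4.55 kb, 1.05 kb beyond a gene end. Pax3, a paired-type gene of dorsal neural tube and neural crest, had a pair of 5.47 and 4.74 kb, and Hoxd3 had one of 4.74 kb. A K27M Suz12 peak lay 2.14 and 8.49 kb from the Pax3 sites and 7.60 kb from the Hoxd3 site. The nearest was 1479 kb from the Msx2 site and 955 kb from the Msx1 site. At these 5 sites K27M H3K27me3 covered the full width in both replicates, so a Suz12 peak was missing where the mark was still called. After EPZ the Msx2 site kept H3K27me3 in H3WT, with 5.65 and 4.38 kb in the 2 replicates, and was listed at 0 in both K27M replicates. The wider of the Pax3 sites kept all 5.47 kb in all 4 EPZ libraries.

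The Hox clusters, whose genes set position along the body axis, held the single largest change. Across the Hoxa window (chr6:52145367-52328389, the cluster and 10 kb on each side) Suz12 covered 62.5 kb in H3WT cells but 117 kb in K27M cells. In H3WT the first peak began at Hoxa9 and further peaks lay as far as Evx1, with no peak over Hoxa3 to Hoxa7. In K27M 1 peak of 69.8 kb (chr6:52172771-52242615) reached from Hoxa3 to Hoxa11, where H3WT had 15.4 kb in 2 peaks. The change was thus on the Hoxa3 to Hoxa7 side, while the cover within 10 kb of the Hoxa13 ends was 19.8 kb in H3WT against 21.1 kb in K27M, and that of Evx1 15.5 and 14.8 kb. H3K27me3 already covered 60.9 and 69.8 kb of the 69.8 kb block in H3WT, and 69.8 kb in both K27M replicates, and Ring1b cover was 59.3 kb in H3WT against 69.8 kb in K27M.

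**Figure D2:**
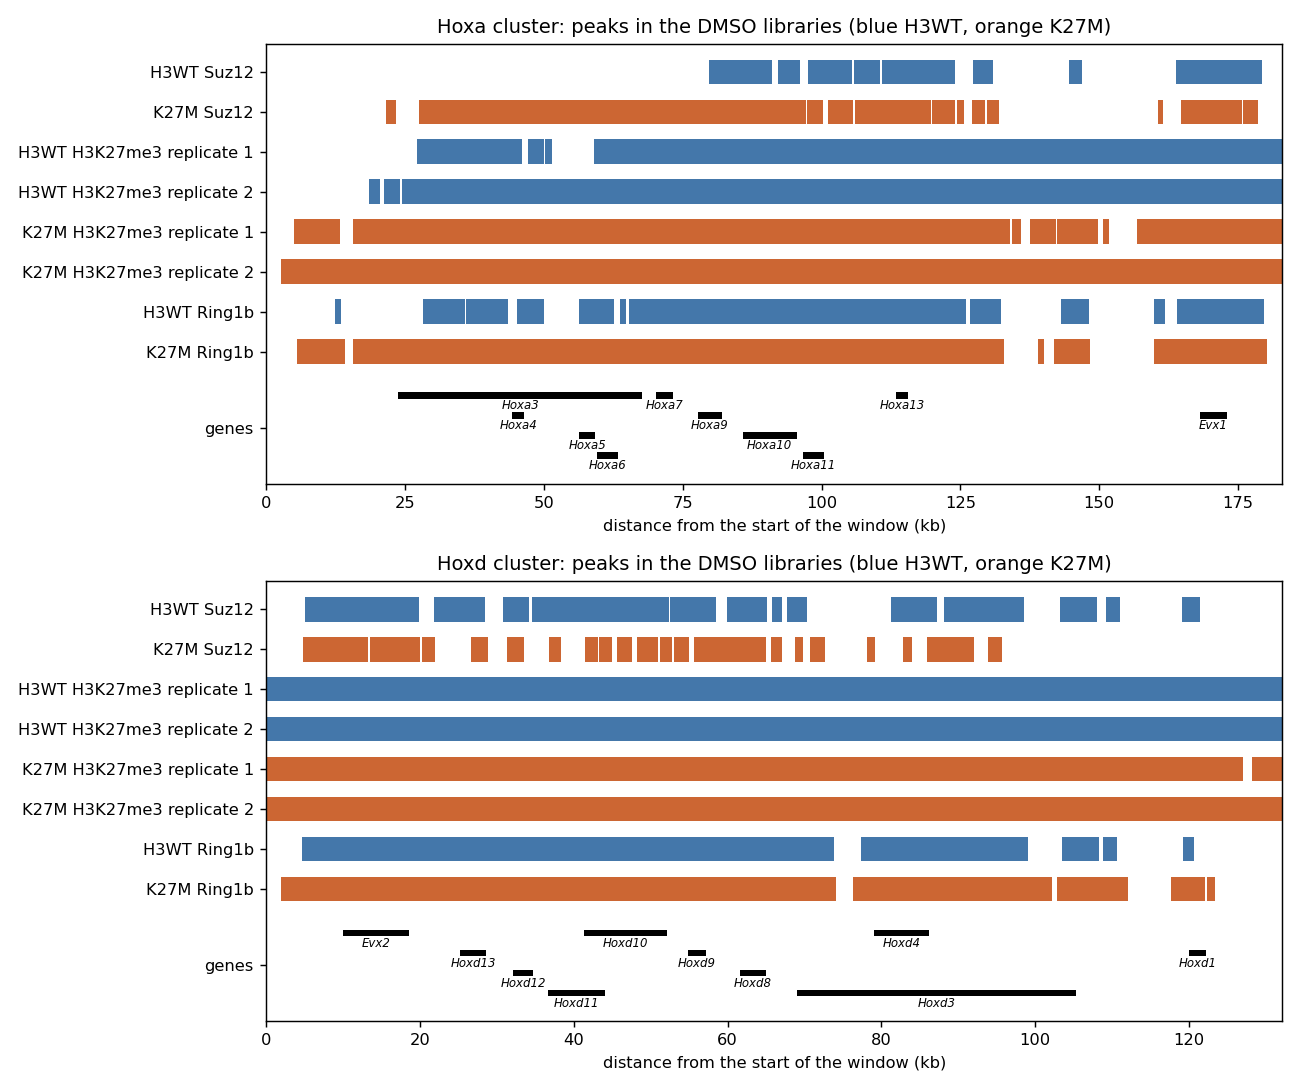
Peaks of the Suz12, H3K27me3 and Ring1b lists from DMSO cells across the Hoxa (top) and Hoxd (bottom) windows, in kb from the start of each window. Each bar is a called peak, blue for H3WT and orange for K27M, and black bars are bodies of genes that overlap a Suz12 peak of either genotype. K27M Suz12 covers the Hoxa3 to Hoxa7 side that holds no H3WT Suz12 peak, and at Hoxd it is split into 21 peaks against 14.

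The other 3 Hox clusters had less Suz12 cover in K27M, spread over more peaks. Hoxd had 58.1 kb in 21 peaks against 83.1 kb in 14, Hoxb 43.1 kb in 20 against 59.8 kb in 16, and Hoxc 65.2 kb in 25 against 76.6 kb in 22. As the map of the Hoxd window shows, a 16.6 kb H3WT peak over Hoxd10 and Hoxd11 stood against several narrow K27M peaks there. H3K27me3 filled nearly all of the Hoxd window in both genotypes, with 132 and 132 kb in H3WT and 131 and 132 kb in K27M, and all 136 kb of the Hoxc window in all 4 lists. At Hoxb it was lower in K27M, with 137 and 158 kb against 155 and 172 kb. Ring1b cover was the larger in K27M at Hoxb (112 against 80.3 kb), Hoxc (129 against 104 kb) and Hoxd (113 against 98.9 kb). It was also the larger over the whole Ring1b list, at 7.54 against 5.17 Mb. The lower cover at these 3 clusters kept its direction when peaks were joined across gaps of up to 2 kb.

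Of 1005 hairpins in the RefSeq table, 6 lay under Suz12 in both genotypes, 2 in K27M alone and 1 in H3WT alone. The mature forms of the Hox hairpins and of miR-137, a neuronal microRNA, are printed with the seed (bases 2 to 8) in capitals.
mmu-miR-10a-5p: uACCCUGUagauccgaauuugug
mmu-miR-10b-5p: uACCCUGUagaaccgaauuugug
mmu-miR-196b-5p: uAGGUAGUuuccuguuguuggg
mmu-miR-137-3p: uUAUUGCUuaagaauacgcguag
The seeds of miR-10a and miR-10b are the same. Mir10a, by Hoxb4, lay under an H3WT peak of 4.49 kb and no K27M peak, and Mir10b, by Hoxd4, under an H3WT peak of 5.99 kb and a K27M peak of 1.08 kb. Mir196b, between Hoxa9 and Hoxa10, lay under 11.4 kb in H3WT and the 69.8 kb block in K27M. Mir137 lay under a 3.72 kb peak in K27M alone. All 4 hairpins were under H3K27me3 in both replicates of both genotypes.

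Over 30 clusters of related genes, Suz12 was present in both genotypes at 20, in K27M alone at 6, in H3WT alone at 1 and in neither at 3. K27M had the larger cover at 20 and the smaller at 7. The median log2 ratio over the 20 clusters covered in both was 0.81, and the summed cover was 652 against 476 kb. Of the homeobox pairs, Dlx1 and Dlx2 had 23.6 kb in K27M and 0 in H3WT, Dlx3 and Dlx4 20.03 against 7.28 kb, and Dlx5 and Dlx6 7.58 against 1.66 kb. Tlx1 and Lbx1 had 42.8 against 22.2 kb, Six2 and Six3 25.7 against 11.7 kb, and the ParaHox cluster of Gsx1, Pdx1 and Cdx2 31.3 against 14.9 kb. The Wnt6 and Wnt10a pair of secreted ligands had 15.9 against 1.85 kb, and Wnt1 and Wnt10b 9.97 against 3.18 kb. The summed ratio over the clusters, 1.37, was below the 1.94 of covered length over all peaks, and with the 631 widest K27M peaks it was 1.11. Besides Hoxb, Hoxc and Hoxd, the clusters with less cover in K27M were Irx1, Irx2 and Irx4 (1.11 against 1.87 kb), Nkx2-1, Nkx2-9 and Pax9 (13.1 against 14.99 kb), Pax1 and Foxa2 (22.9 against 23.5 kb) and Tbx3 and Tbx5 (0 against 1.00 kb).

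**Figure D3:**
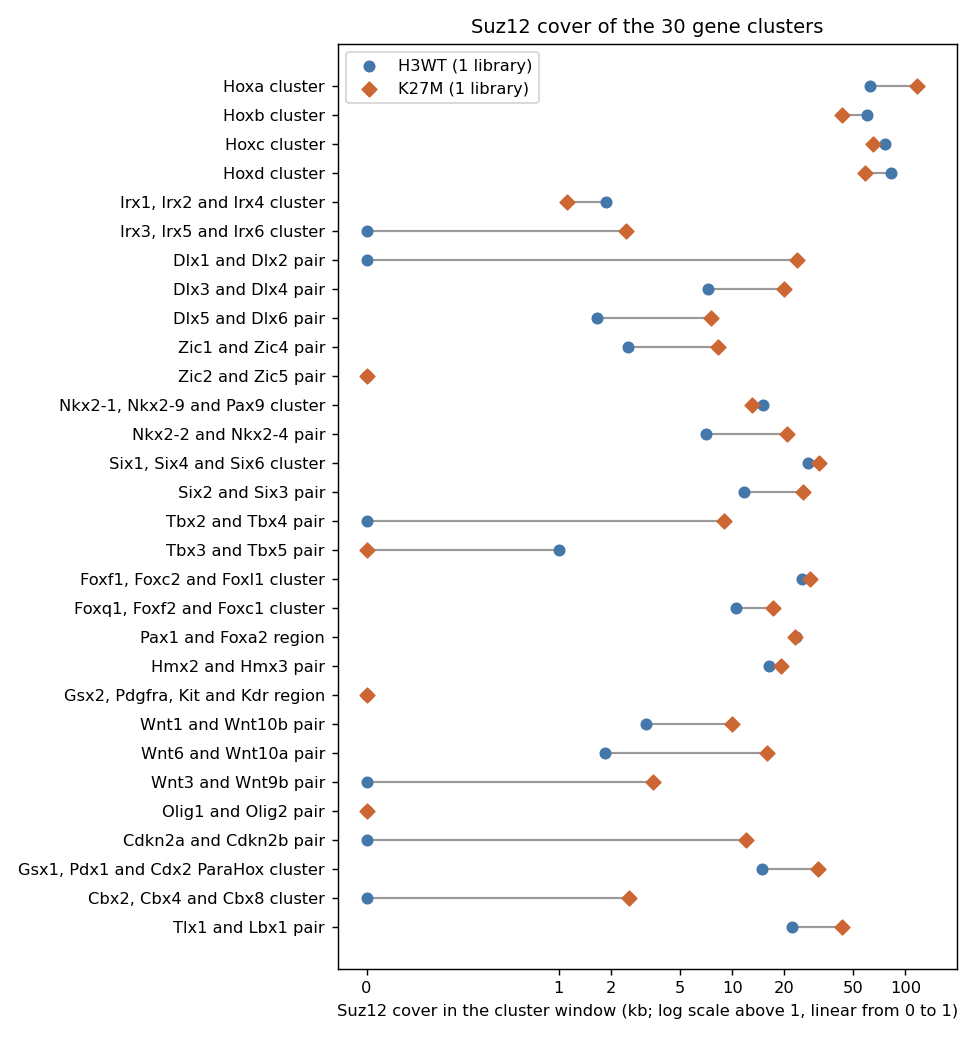
Suz12 cover (kb) of the 30 cluster windows in H3WT (blue circles) and K27M (orange diamonds), 1 library each, joined by a grey line. The x axis is logarithmic above 1 kb and linear from 0 to 1 kb. K27M lies to the right at 20 clusters and to the left at 7, among them Hoxb, Hoxc and Hoxd.

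As the plot of the 30 clusters shows, 3 windows were without Suz12 in both genotypes: Olig1 and Olig2, the region of Gsx2, Pdgfra, Kit and Kdr, and Zic2 and Zic5. Olig2 and Sox2, factors of neural and glial progenitors, were also without H3K27me3 in all 8 H3K27me3 lists, over 10 kb to each side of the gene. At Pdgfra, the PDGF receptor alpha, Suz12 was listed at 0 in both genotypes although H3K27me3 covered 1.49 and 3.99 kb in H3WT and 4.60 and 9.63 kb in K27M. The genes of PRC2 itself, Ezh2, Eed and Suz12, had no Suz12 peak within 10 kb in either genotype, and neither had Rnf2, which encodes Ring1b.

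The Cdkn2a and Cdkn2b pair, which encodes the cell cycle inhibitors p16, p19Arf and p15, had 6 K27M peaks with 12.0 kb in sum and none in H3WT. All 6 lay within 10 kb of the ends of Cdkn2a or inside it, and the cover at Cdkn2b was 0. The widest, of 3.61 kb (chr4:89281296-89284906), spans the inner start region printed above, and the outer one lay outside the peaks. H3K27me3 was present at Cdkn2a in both genotypes, with 22.9 and 29.6 kb in H3WT and 29.4 and 30.6 kb in K27M. Ring1b covered 28.7 kb in K27M and 11.3 kb in H3WT. No H3K27me3 was listed there after EPZ in any of the 4 libraries.

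At the level of genes, a gene was counted when a Suz12 peak lay within 1 kb of either of its ends. This held for 369 of 21627 protein-coding genes in H3WT (1.71%) and 586 in K27M (2.71%). It held for 279 genes in both genotypes (1.29%), 307 in K27M alone (1.42%) and 90 in H3WT alone (0.416%). Of the H3WT genes, 75.6% (interval 70.9 to 79.9) were also counted in K27M. Among the 285 genes of 10 transcription factor lists, 131 were counted in H3WT and 160 in K27M, and 120 of the 131 (91.6%, 85.5 to 95.7) were common to both. Among genes in no list, 134 of 202 (66.3%, 59.4 to 72.8) were common. Genes of the factor lists thus recurred in a larger share than genes in no list, and they were 43.0% of the genes in both, 13.0% of those in K27M alone and 12.2% of those in H3WT alone, beside 1.32% of all genes. Set beside all H3WT genes, which include the factor genes, the shares also found in K27M were 91.6% (factor genes) and 75.6% (all). With the peaks under 2 kb left out, these shares were 77.4% and 72.4%, a smaller gap. With the 631 widest K27M peaks the shares were 77.9% and 64.2%.

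Hox genes led both genotypes, with 30 of 39 counted in H3WT and 34 in K27M. Forkhead factors, regulators of endoderm and mesoderm, had 15 and 18 of 28, and the 15 of H3WT were all among the 18. Foxb1 had 15.8 kb (H3WT) and 17.3 kb (K27M), and Foxa1 12.4 and 16.8 kb, as cover within 10 kb of the gene ends. The Nkx, Lbx, Tlx and Bar list had 20 and 23 of 36, the list of LIM, sine oculis-type and POU homeobox genes 15 and 20 of 31, and the Pax and paired-type list 18 and 21 of 38. En2, a homeobox gene of midbrain and hindbrain, had 13.4 kb in K27M and 0 in H3WT, and its partner En1 6.51 kb and 0. Pou4f3, a gene of sensory neurons, went the other way, with 0 in K27M and 7.82 kb in H3WT. T-box factors had 3 and 6 of 17, and Eomes, a T-box gene of cortical intermediate progenitors and mesoderm, had 10.6 kb in K27M and 0 in H3WT. Proneural bHLH genes had 8 and 11 of 21, with Atoh1 at 5.09 kb in H3WT and 9.04 kb in K27M.

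Signalling genes showed the same direction in counts as all protein-coding genes, whose ratio of K27M to H3WT was 1.59. That ratio was 1.22 for the factor lists together and 1.89 for genes in no list. A higher count in K27M was thus not particular to these lists. Wnt and Fgf ligands had 8 of 41 in H3WT and 15 in K27M, with 8 in K27M alone, among them Fgf8 (4.41 kb against 0) and Wnt9a (4.61 kb against 0). Bmp, TGF-beta and Hedgehog genes had 8 and 10 of 38, the additional ones being Shh (2.62 kb against 0) and Gli1 (1.98 kb against 0, on chromosome 10 beyond 75 Mb). Neuronal differentiation genes, by contrast, had 8 of 36 in each genotype, 6 of them the same. Slc17a7, a vesicular glutamate transporter, had 13.6 kb in K27M against 3.06 kb. Some lists had fewer genes in K27M: imprinted genes 2 against 5 of 28, and germ cell genes 0 against 2 of 32. Over all protein-coding genes the shares were 1.71% in H3WT and 2.71% in K27M. Both lie within the counting intervals of the germ cell list, 0.766% to 20.8% in H3WT and 0% to 10.9% in K27M. The imprinted genes in H3WT alone were Grb10 (3.06 kb), Gnas (1.47 kb) and Slc22a3 (1.03 kb), and the germ cell genes were Dmrt1 (4.49 kb) and Prdm14 (1.04 kb). The values of Slc22a3 and Prdm14 lie close to the narrowest called peak, 1001 bp. Housekeeping genes, astrocyte and oligodendrocyte differentiation genes, and markers of mesenchymal, endothelial and microglial cells had 0 of 34, 0 of 21 and 0 of 27 in each genotype. Their counting intervals reached 10.3%, 16.1% and 12.8%, so these counts cannot be told apart from the shares over all genes.

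**Figure D4:**
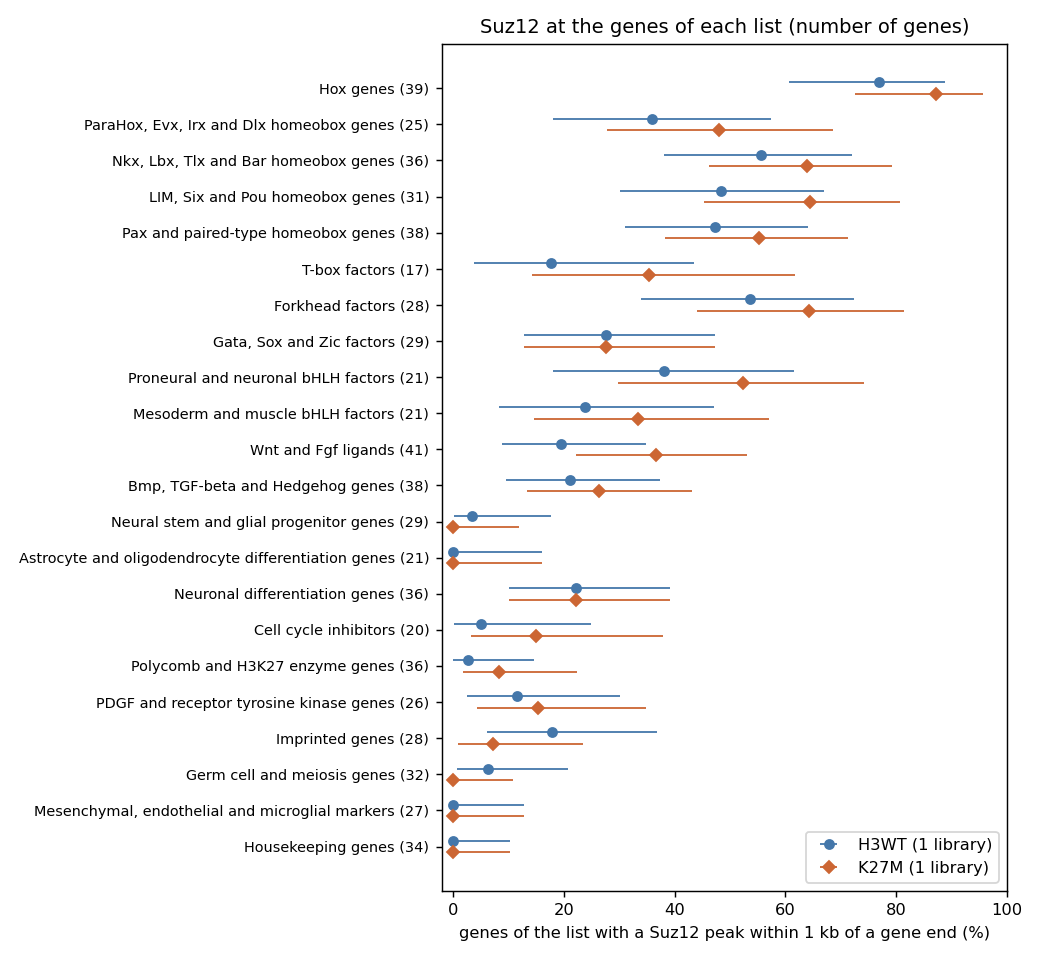
Share of the genes of each of 22 lists with a Suz12 peak within 1 kb of a gene end (x axis, %) in H3WT (blue circles) and K27M (orange diamonds), with the number of genes in brackets. Bars are exact 95% intervals, which cover counting of genes only. The Hox list is highest, at 76.9% and 87.2%, and the intervals of the genotypes overlap in each of the 22 lists.

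The plot of gene lists shows overlapping intervals for the genotypes in each list. That overlap is no test of a difference, since the same genes were counted in both genotypes and the lists are short. A few members of the Polycomb list differed: Cbx2, a PRC1 subunit, had 2.54 kb in K27M and 0 in H3WT, and Epop, a PRC2 partner, 2.92 kb and 0. Bmi1, another PRC1 subunit, had 1.08 kb in H3WT and 0 in K27M. Among receptor tyrosine kinases Igf1r, the IGF1 receptor, had 8.30 kb in K27M and 1.04 kb in H3WT, and Flt4 0 and 1.22 kb. The H3WT values at Bmi1, Igf1r and Flt4 lie close to the narrowest called peak, 1001 bp.

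Nearly all Suz12 peaks overlapped H3K27me3 of its own genotype. In H3WT, 630 and 631 of 631 Suz12 peaks overlapped an H3K27me3 peak of replicates 1 and 2. In K27M, 1163 of 1252 (92.9%, 91.3 to 94.3) and 1247 (99.6%, 99.1 to 99.9) did. Of the K27M only sites, 677 of 764 (88.6%, 86.1 to 90.8) and 759 (99.3%) were under K27M H3K27me3, against 399 and 401 of 401 shared sites. On the H3WT side, 734 of 764 (96.1%, 94.4 to 97.3) and 762 (99.7%) were already under H3K27me3 in H3WT cells that had no Suz12 peak there. H3WT only sites were under K27M H3K27me3 in 136 of 162 cases (84.0%, 77.4 to 89.2) in replicate 1 and 159 (98.1%) in replicate 2. A Suz12 peak in 1 genotype therefore seldom marked a place without the modification in the other. The replicates differed in the number of called peaks, with 13358 and 59899 H3K27me3 peaks in H3WT and 2351 and 17980 in K27M.

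The H3K27me3 peaks around Suz12 were broad. In H3WT replicate 1, whose peaks had a median width of 1.78 kb, those holding a shared site had a median of 23.9 kb, those holding a K27M only site 11.6 kb and those holding an H3WT only site 12.6 kb. Seen from the mark, 404 of 13358 H3WT peaks (3.02%) in replicate 1 and 396 of 59899 (0.661%) in replicate 2 held H3WT Suz12. In K27M 687 of 2351 (29.2%) and 715 of 17980 (3.98%) held K27M Suz12. For peaks of at least 10 kb the shares were 37.2% and 9.58% in H3WT and 78.0% and 39.7% in K27M. A larger share of the remaining H3K27me3 peaks in K27M thus held Suz12, in lists that were also much shorter and beside a longer Suz12 list. With the H3WT Suz12 list in its place, 16.2% and 2.21% of all K27M H3K27me3 peaks held Suz12, against the 3.02% and 0.661% of H3WT.

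H3K27me3 peaks with Suz12 in H3WT cells were mostly still called in K27M cells. In replicate 1, 374 of 404 (92.6%, 89.6 to 94.9) overlapped a K27M H3K27me3 peak, against 1540 of 12954 (11.9%, 11.3 to 12.5) of those without Suz12. In replicate 2 the shares were 98.99% (97.4 to 99.7) and 19.9% (19.6 to 20.2). Width moved with this, since the medians in replicate 1 were 12.8 and 1.75 kb. Among peaks of at least 5 kb the shares were 95.4% and 56.8% in replicate 1 and 99.7% and 62.5% in replicate 2, a smaller gap. Peaks with Suz12 were still the wider ones there, with medians of 14.1 against 7.31 kb and 20.7 against 7.79 kb, and the part of width in this gap was not tested. H3WT peaks with Suz12 in K27M alone were kept in 87.4% of cases in replicate 1 and 99.5% in replicate 2. Those shares were largely set by the choice of peaks, since nearly all K27M Suz12 peaks overlapped K27M H3K27me3. Peaks with Suz12 in H3WT alone were kept in 75.2% and 96.2% of cases, and peaks with Suz12 in neither in 9.16% and 19.3%. Width differed here too, with medians of 8.13 and 1.71 kb in replicate 1.

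Ring1b, unlike H3K27me3, had no called peak at many sites. The Ring1b lists covered 5.17 Mb (H3WT) and 7.54 Mb (K27M), against 13.5 to 217 Mb for the H3K27me3 lists in DMSO. The lists compared were thus of unlike length. Of H3WT Suz12 peaks 78.0% (74.5 to 81.1) overlapped H3WT Ring1b, and of K27M Suz12 peaks 71.3% (68.7 to 73.8) overlapped K27M Ring1b. When only as many of the widest K27M peaks were kept as H3WT has peaks, the K27M share was 82.25%, above that of H3WT. With peaks of at least 2 kb only, H3WT had the larger share, 86.7% against 82.3%. Which genotype had the larger share thus depended on the peaks kept. Shared sites carried Ring1b in both genotypes in 328 of 401 cases (81.8%). K27M only sites carried it in both in 313 of 764 (41.0%), in K27M alone in 144 and in H3WT alone in 6. H3WT only sites carried it in both in 79 of 162 (48.8%), in H3WT alone in 16 and in K27M alone in 8. Gain of Suz12 and gain of Ring1b in K27M thus coincided at 144 sites, while 301 of the K27M only sites had no Ring1b in either genotype.

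After EPZ, H3K27me3 was called mainly where Suz12 was shared. Shared sites overlapped H3K27me3 of H3WT EPZ cells in 61.6% and 57.9% of cases (replicates 1 and 2) and of K27M EPZ cells in 40.1% and 53.9%. K27M only sites did so in 9.95% and 6.02%, and in 2.75% and 9.29%. H3WT only sites lay between, at 37.7% and 34.6% in H3WT EPZ and 9.88% and 18.5% in K27M EPZ. Among K27M peaks, those with an H3WT partner had the higher share in each class of width. Width here was that of single peaks, and the 488 K27M peaks with a partner lay in 401 sites. The width of the site was thus not held fixed. Among K27M peaks of 4 kb or more, 73.6% and 68.0% of the 178 with an H3WT partner and 12.5% and 2.50% of the 80 without one overlapped H3K27me3 of H3WT EPZ cells. Among K27M peaks under 2 kb the shares were 75.7% and 73.0% of 148 and 9.45% and 6.51% of 476. For H3WT peaks under 2 kb the gap was smaller, with 42.4% and 39.6% of 144 with a K27M partner against 25.8% and 22.7% of 97 without one. Among H3WT peaks of 4 kb or more the shares were 94.2% and 92.1% of 139 with a partner, and 9 and 8 of the 9 without one. From the other side, 199 of 278 and 200 of 271 H3K27me3 peaks of H3WT EPZ cells held H3WT Suz12 (71.6% and 73.8%), and 166 of 201 and 214 of 340 of K27M EPZ cells held K27M Suz12 (82.6% and 62.9%). Suz12 itself was mapped in DMSO only, so these values set Suz12 of untreated cells beside H3K27me3 of treated ones.

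**Figure D5:**
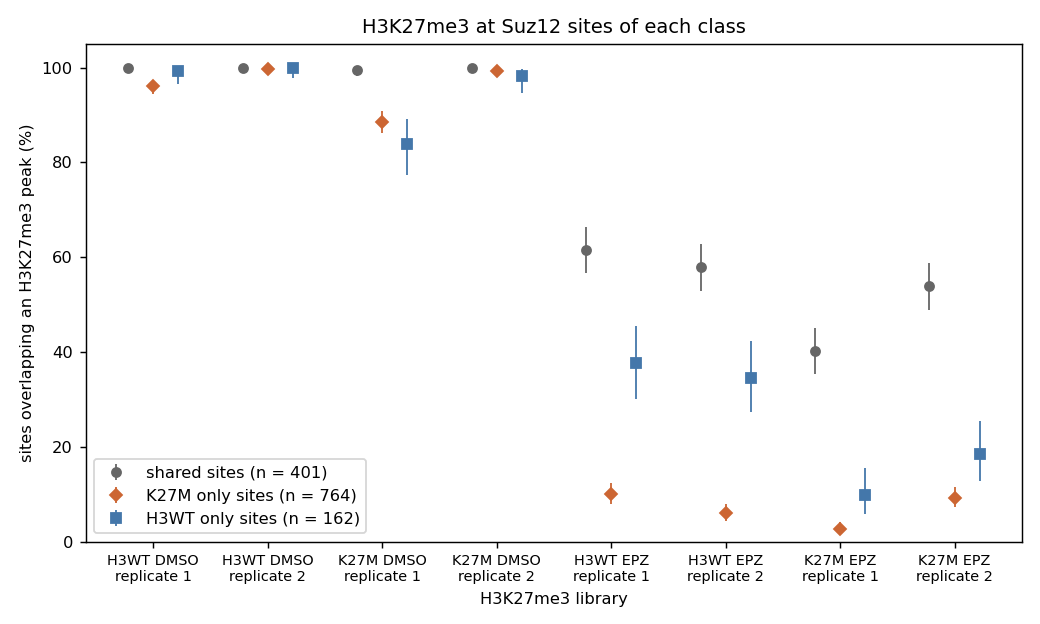
Share of Suz12 sites overlapping an H3K27me3 peak (y axis, %) in each H3K27me3 library (x axis), for 401 shared (grey circles), 764 K27M only (orange diamonds) and 162 H3WT only sites (blue squares). Bars are exact 95% intervals, which cover counting of sites only. In DMSO all classes lie at 84.0% or above, and after EPZ the shared sites lie between 40.1% and 61.6% and the K27M only sites below 10%.

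The plot of H3K27me3 by library shows the 3 classes close together in DMSO and apart after EPZ in all 4 EPZ libraries. Named genes gave examples of both. Foxd1, with 12.7 kb of Suz12 in H3WT and 16.6 kb in K27M, had 15.4 and 15.4 kb of H3K27me3 after EPZ in H3WT cells and 14.5 and 15.3 kb in K27M cells. Hand2, a bHLH gene of heart and sympathetic neurons, kept 23.5 kb in 3 of the 4 EPZ libraries and 20.2 kb in K27M replicate 1. Neurog2 and En2, with Suz12 in K27M alone, were listed at 0 in all 4. Of the wide K27M only sites named above, Otx2 (8.89 and 11.5 kb), the Dlx1 and Dlx2 block (9.44 and 11.0 kb) and Onecut1 (1.746 and 7.003 kb) kept some H3K27me3 in both K27M EPZ replicates.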

How the data were processed

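Peak lists were used as deposited by the authors. The submitters' processing notes name Bowtie 1.1.2 and mm10, and the peak caller, its threshold, the control and the read depth are not given in the sources used here. The score column deposited by the authors held 0 in all 100144 lines of the 12 lists, so peaks carry a position and width but no height. The 2 IgG control libraries were not analysed here. Overlapping lines within a list were merged, which removed 21, and overlap of at least 1 bp joined the Suz12 peaks of both genotypes into sites. Cover is the length under peaks in kb.

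Genes came from the RefSeq table of GRCm38.p6, which has no strand, so a peak within 1 kb of either gene end counted, and the start regions of the RefSeq promoter table served as an alternative. Cover at a named gene was taken within 10 kb of its ends and at a cluster within 10 kb of its window. All 640 genes of the 22 lists were matched by symbol. Named were the fixed genes Cdkn2a, Cdkn2b, Pdgfra, Olig2, Sox2, Ezh2, Suz12, Eed and Rnf2, the 10 largest gains and 5 largest losses of cover at shared sites, the 10 widest K27M only and 5 widest H3WT only sites, up to 4 members of each list in each state by cover, and the genes of the clusters. The members, lists and clusters were chosen with earlier results of these data known. No test was run, since each genotype had 1 Suz12 library. The overlap code was tested on simulated peaks. Python 3.11.15, pandas 2.3.3, numpy 2.4.6, scipy 1.17.1 and matplotlib 3.10.9 were used. Some genes of the lists and clusters are not reported here.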

Additional observations from a re-analysis of the deposited data

How the results depend on the processing

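Of 177 values recomputed under alternatives for 34 results, 140 were labelled as the same, 37 as moved and 0 as reversed in direction. The same meant within 1.5 times for ratios, within the counting interval for shares and within 1 standard deviation for means of replicates. A reversal could be called for ratios and log2 ratios only. Leaving out 1 of 2 replicates cannot move a mean beyond that deviation, so those labels were fixed in advance. With peaks of at least 2 kb only, 69.2% of H3WT and 42.5% of K27M peaks were overlapped, K27M only sites were 3.01 times the H3WT only sites, the Hoxb log2 ratio was -1.10, and 77.4% of H3WT factor-list genes recurred in K27M. H3K27me3 of the own genotype then lay at 100% of H3WT and 97.8% of K27M peaks and that of the other genotype at 98.1% of K27M only and 94.2% of H3WT only sites. Ring1b lay at 86.7% and 82.3% of H3WT and K27M peaks, and H3K27me3 after EPZ at 70.4% (H3WT) and 59.2% (K27M) of shared and 60.0% and 30.8% of H3WT only sites, as means of replicates. With the 631 widest K27M peaks, 59.9% of H3WT and 54.0% of K27M peaks were overlapped, the ratio of sites found in 1 genotype was 1.15, 74.0% of shared sites were wider in K27M, and the log2 ratios were -1.29 at Hoxb and -1.14 at Hoxd. Then 64.2% of H3WT genes and 77.9% of H3WT factor-list genes recurred, and factor genes were 17.7% of K27M alone genes. The H3K27me3 shares were then 97.8% of K27M peaks, 97.6% of K27M only and 89.7% of H3WT only sites. Ring1b then lay at 82.25% of K27M peaks, above the 77.97% of H3WT peaks, whereas the full K27M list had the smaller share. Joining peaks across gaps of up to 2 kb gave 70.3% of shared sites wider. Asking for at least 50% of a peak under the other list gave 90.6% of K27M peaks and 94.2% of K27M only sites for H3K27me3, and 74.3% and 66.6% of H3WT and K27M peaks for Ring1b.

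H3K27me3 without replicate 1 or without replicate 2 ranged from 99.8% to 100% of H3WT peaks, 92.9% to 99.6% of K27M peaks, 96.1% to 99.7% of K27M only sites and 84.0% to 98.1% of H3WT only sites. Start regions in place of gene ends were an alternative chosen after seeing the data. The ratio of K27M to H3WT genes was then 1.56. Of H3WT genes 72.2% recurred in K27M, and of H3WT factor-list genes 90.1%. These values were labelled as the same, and the numbers of genes themselves were not compared. No paired analysis was possible because each genotype had 1 Suz12 library and no result came from a test. Without read depth or peak height, a weak peak and no peak cannot be told apart, and a longer list also finds narrower peaks.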
